A study of Mus musculus with 6 samples.

Results

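Basement membranes are thin sheets of matrix that lie under epithelia and around vessels, nerves, muscle and fat. They are built from a laminin network and a collagen IV network, which nidogens and the heparan sulfate proteoglycan perlecan link to each other. In skin, the basement membrane between epidermis and dermis is tied to the dermis by anchoring fibrils of collagen VII, and both keratinocytes and dermal fibroblasts supply its components. The 10 genes described here encode the nidogens (Nid1 and Nid2), 3 laminin chains (Lama4, Lamb1 and Lamc1), perlecan (Hspg2), 3 collagen IV chains (Col4a1, Col4a2 and Col4a5) and the collagen VII chain (Col7a1). They were chosen by name out of 43629 genes in the deposited tables, with earlier results of these data known. All 10 were among the 15341 genes with enough reads to be tested.

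RNA-seq was run on primary dermal fibroblasts of newborn mice, cultured for 6 days to passage 1. The 3 caNrf2 libraries came from mice with a constitutively active mutant of Nrf2 (caNrf2) and Col1a2Cre, a transgene that drives Cre in fibroblasts. The 3 ctrl libraries came from mice with Col1a2Cre only (genotype Col1a2Cre-wt), on the same mixed background of 50% C57Bl/6 and 50% FVB/N. Nrf2, encoded by Nfe2l2, is a transcription factor that drives antioxidant and detoxification genes. The design text gives 3 mice a group, and each library was taken to stand for 1 mouse, which the sample titles do not state.

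Levels are given as CPM, reads scaled to library size, or TPM, which also divides by transcript length. Library totals lay between 30168400 and 45164208 expected counts. Nfe2l2 averaged 380 ± 43.2 CPM in caNrf2 and 109 ± 5.87 CPM in ctrl libraries (SD, n = 3 each), higher in each caNrf2 library, as labelled. Replicate 1 of each group stood apart from the other libraries on the second principal component, at 31.2 (caNrf2) and 25.9 (ctrl), while the others lay between -19.6 and -8.88. All 9 fibroblast markers were detected, with Col1a1 the most abundant, and they summed to 27068 to 32387 CPM in caNrf2 and 37801 to 53195 CPM in ctrl libraries. Of them 2 were called higher and 3 lower. The lower ones were the collagen genes Col1a1, Col1a2 and Col3a1. Pdgfra (1139 ± 52.6 CPM in caNrf2 and 855 ± 62.6 CPM in ctrl) and Thy1 (640 ± 15.8 and 484 ± 42.9 CPM) were higher. Dcn, Lum, Dpt and Vim were not called. The higher count was 1 without caNrf2 replicate 3 or ctrl replicate 2. The lower count was 2 without caNrf2 replicate 1, 2 or 3, ctrl replicate 2 or 3, or replicate 1 of both groups. In bulk RNA, fewer cells of a type and less RNA per cell cannot be told apart.

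The sequences upstream of 3 of the genes are shown because Nid1 changed most, Col7a1 is the anchoring fibril gene, and Col4a2 shares its start region with Col4a1. RefSeq start windows (250 bases before to 50 after each start, GRCm38.p6) were found for 7 of the 10 genes: Nid1, Lamb1, Hspg2, Col4a1, Col4a2, Col4a5 and Col7a1. They were searched on both strands for TGACNNNGC (the core of the antioxidant response element that Nrf2 binds), TGANTCA (the AP-1 element, which can overlap TGACNNNGC), GGGCGG (the GC box) and CCAAT. In the sequences, read 5′ to 3′ on the gene's strand, capitals mark the letters of these motifs or of their reverse complements. The Nid1 stretch is chr13:13437352-13437550 on the plus strand, the Col7a1 stretch is chr9:108953336-108953585 on the plus strand, and the Col4a2 stretch is chr8:11312721-11312750 on the plus strand.
Nid1: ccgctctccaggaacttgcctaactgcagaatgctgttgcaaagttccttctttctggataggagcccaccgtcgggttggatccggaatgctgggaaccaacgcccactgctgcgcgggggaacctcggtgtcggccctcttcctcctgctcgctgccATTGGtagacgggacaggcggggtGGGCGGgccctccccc
Col7a1: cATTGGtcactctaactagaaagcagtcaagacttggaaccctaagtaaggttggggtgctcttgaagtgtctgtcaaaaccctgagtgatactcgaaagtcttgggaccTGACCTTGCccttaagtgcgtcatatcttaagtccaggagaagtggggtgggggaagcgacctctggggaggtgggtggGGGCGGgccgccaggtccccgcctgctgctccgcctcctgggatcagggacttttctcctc
Col4a2: ccgggtgcggTGACTCTGCgcagagacctg

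The Nid1 window held a GC box and a reversed CCAAT but no TGACNNNGC. TGACNNNGC stood in the windows of Col7a1 (TGACCTTGC, first base at -140 counted from the start as 0) and Col4a2 (TGACTCTGC, at -74), and in none of the other 5 windows. Of all 32851 RefSeq windows, 12.4% held TGACNNNGC, 7.81% TGANTCA, 35.7% GGGCGG and 37.4% CCAAT. None of the 7 windows held TGANTCA. Col4a1 and Col4a2 are head-to-head neighbours: their RefSeq starts lie at 11312826 (minus strand) and 11312805 (plus strand) of chromosome 8, so that 22 bases belong to both genes. The Col4a2 stretch with its TGACNNNGC lies inside the first exon of Col4a1 in GENCODE M21. A match of letters is a description of the sequence and shows no binding.

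The 10 basement membrane genes were not all called between caNrf2 and ctrl cultures. Differences between components were compared only as ratios of gene pairs, with an exact permutation test that cannot go below p = 0.1. Both nidogen genes, Col7a1 and Col4a5 were higher in caNrf2, and the laminin chains, perlecan and the main collagen IV chains were not called in either direction. A gene is said to be called where its adjusted p was under 0.05 (edgeR quasi-likelihood F test, Benjamini-Hochberg adjustment over all genes tested). Of the 10 genes, 4 were called higher, where the same fit called 12.5% of all genes tested higher. None of the 10 was called lower by edgeR, DESeq2 or limma-voom (background 9.03% in edgeR), and at an unadjusted p under 0.05 in edgeR there was 1 lower gene, Lamb1. The median log2 fold change of the 10 genes was 0.18, beside -0.0031 over all genes tested. The groups did not overlap in CPM for 4 of the 10 genes, near the 42.1% of all tested genes for which that held.

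**Figure D1:**
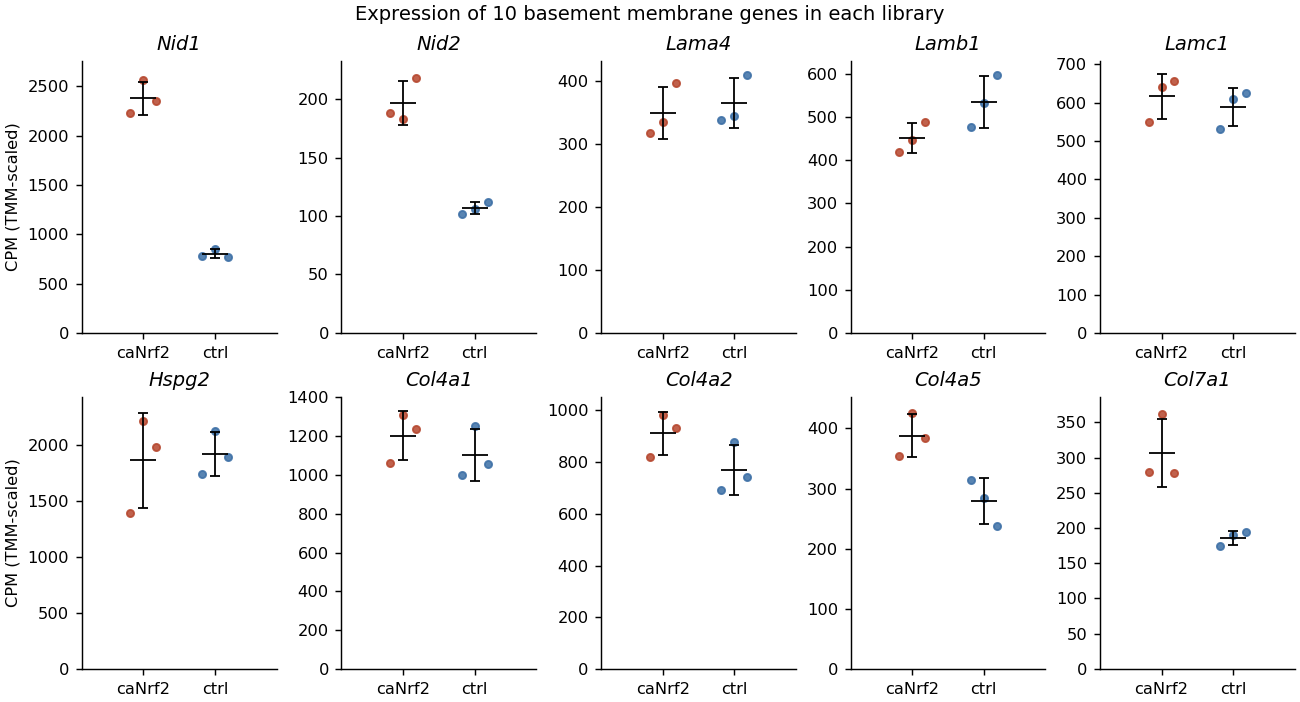
TMM-scaled CPM (y axes from 0) of the 10 genes in each caNrf2 and ctrl library, 1 panel a gene; points are libraries, bars are the mean and SD of 3. Nid1, Nid2, Col4a5 and Col7a1 show no overlap between the groups, and the other 6 genes do.

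Nid1 encodes nidogen-1, the protein that bridges the laminin γ1 chain and collagen IV. The gene (ENSMUSG00000005397, chromosome 13, 13437602 to 13512275, GRCm38, plus strand) had 2226, 2559 and 2351 CPM in caNrf2 libraries, against 783, 853 and 772 CPM in ctrl libraries. Each caNrf2 library was therefore far above each ctrl library, and the spread within a group was small beside the gap. The fold change was 2.96 (log2 1.57, SE 0.09, edgeR adjusted p = 6.8e-06). Its paralog Nid2, nidogen-2, with a similar linking role (ENSMUSG00000021806, chromosome 14, 19751257 to 19811787, plus strand), had 188, 183 and 218 CPM in caNrf2 libraries, against 102, 106 and 112 CPM in ctrl libraries. The groups again did not overlap, with a fold change of 1.84 (log2 0.88, SE 0.09, edgeR adjusted p = 0.000254). The last 386 bases of Nid2 overlap Rtraf on the opposite strand, a gene at 96.9 ± 7.46 CPM in caNrf2 and 109 ± 8.97 CPM in ctrl libraries (n = 3 each), and the strand setting of the counting is not given in the sources used here. Both nidogen calls held in all 16 alternative analyses, with log2 fold changes of 1.5 to 1.61 for Nid1 and 0.79 to 0.92 for Nid2.

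The place of Nid1 among the 10 genes also differed between the groups. On the per-length scale of summed TPM it averaged 708 ± 81.4 TPM in caNrf2 and 248 ± 13.9 TPM in ctrl libraries (SD, n = 3 each). In caNrf2 libraries it stood first of the 10 genes, apart from Col4a1 (327 ± 50 TPM), which overlapped Col4a2 (256 ± 36.1 TPM), which overlapped Hspg2 (255 ± 35.5 TPM). In ctrl libraries Col4a1 stood first (311 ± 38 TPM), and Col4a1, Hspg2 (253 ± 27.7 TPM), Nid1 and Col4a2 (228 ± 25.5 TPM) each overlapped the next in order. Nid1 made up 32.6%, 32.4% and 31.1% of the summed TPM of the 10 genes in caNrf2 libraries, against 15.7%, 14.9% and 14.5% in ctrl libraries. Nid2 had the lowest mean of the 10 in both groups, at 72.6 ± 8.89 TPM in caNrf2 and 41.1 ± 2.16 TPM in ctrl libraries. Nid2 overlapped Col7a1 in both groups, and Col7a1 was the lower one in caNrf2 replicates 1 and 3. In every library, short retained-intron transcripts of Col7a1, such as one of 245 bases, raise its summed TPM beyond their share of reads. The order of Nid2 and Col7a1 is therefore not settled by summed TPM.

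Perlecan, the large proteoglycan encoded by Hspg2 (ENSMUSG00000028763, chromosome 4, 137468769 to 137570630, plus strand), carries heparan sulfate chains that bind growth factors. It had 1390, 2216 and 1982 CPM in caNrf2 libraries, against 1742, 2126 and 1891 CPM in ctrl libraries. Replicate 1 of caNrf2 was the lowest of all 6 libraries and the groups overlapped. Hspg2 was not called (log2 fold change -0.04, SE 0.16, edgeR adjusted p = 0.874), and the interval of 2 SE around its fold change ran from 0.773 to 1.22. Without a call, the value was 0.13 when caNrf2 replicate 1 was left out, 0.03 when ctrl replicate 2 was, and 0.06 when replicate 1 of each group was.

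The laminin chains measured here can form the trimer of α4, β1 and γ1, a laminin of vessels and mesenchymal tissues. Lamc1, the γ1 chain that nidogen binds (ENSMUSG00000026478, chromosome 1, 153218922 to 153332786, minus strand), had 550, 642 and 657 CPM in caNrf2 libraries, against 532, 609 and 626 CPM in ctrl libraries. Lama4, the α4 chain (ENSMUSG00000019846, chromosome 10, 38965515 to 39110188, plus strand), had 318, 335 and 396 CPM in caNrf2 libraries, against 338, 345 and 410 CPM in ctrl libraries. For both chains the groups overlapped throughout, and neither was called (edgeR adjusted p = 0.692 for Lamc1 and 0.743 for Lama4). Their fold intervals of 2 SE were 0.906 to 1.21 for Lamc1 and 0.818 to 1.13 for Lama4. Lamb1, the β1 chain (ENSMUSG00000002900, chromosome 12, 31265234 to 31329644, plus strand), had 419, 447 and 489 CPM in caNrf2 libraries, against 477, 533 and 597 CPM in ctrl libraries. The highest caNrf2 library lay just above the lowest ctrl library. Lamb1 was not called (log2 fold change -0.25, SE 0.11, edgeR adjusted p = 0.139), with a fold interval of 0.728 to 0.979, and its value stayed between -0.33 and -0.16 in the 16 alternatives, with no call.

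Collagen IV assembles from 3 chains, and the trimer of 2 α1 chains (Col4a1) and 1 α2 chain (Col4a2) is the form found in most basement membranes. Col4a1 (ENSMUSG00000031502, chromosome 8, 11198423 to 11312826, minus strand) had 1061, 1308 and 1238 CPM in caNrf2 libraries, against 1000, 1253 and 1055 CPM in ctrl libraries. Col4a2 (ENSMUSG00000031503, chromosome 8, 11312805 to 11449287, plus strand) had 821, 984 and 931 CPM in caNrf2 libraries, against 691, 879 and 742 CPM in ctrl libraries. Within each group both genes were lowest in replicate 1 and highest in replicate 2, and the groups overlapped. Neither was called (log2 fold change 0.13, SE 0.12, edgeR adjusted p = 0.482 for Col4a1, and 0.24, SE 0.11, adjusted p = 0.168 for Col4a2). The fold intervals of 2 SE were 0.927 to 1.28 and 1.01 to 1.39 in the same order.

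Col4a5 encodes the α5 chain, which pairs with α6 in the skin and with α3 and α4 in the kidney. The gene (ENSMUSG00000031274, chromosome X, 141475385 to 141689234, plus strand) had 354, 425 and 384 CPM in caNrf2 libraries, against 314, 285 and 238 CPM in ctrl libraries. The groups did not overlap, although the highest ctrl library came close to the lowest caNrf2 library. It was called higher, 1.39-fold (log2 0.48, SE 0.12, edgeR adjusted p = 0.0222). The call was lost without caNrf2 replicate 2 (log2 fold change 0.40), caNrf2 replicate 3 (0.47), ctrl replicate 2 (0.49) or ctrl replicate 3 (0.37), with adjusted p between 0.0527 and 0.0759. Col4a6, the partner chain whose gene lies head-to-head with Col4a5, had 6.53 ± 1.23 CPM in caNrf2 and 9.81 ± 1.73 CPM in ctrl libraries (n = 3 each). It was called lower (log2 fold change -0.59, edgeR adjusted p = 0.0474). That call was lost without caNrf2 replicate 1 (-0.44), 2 (-0.68) or 3 (-0.67), without ctrl replicate 1 (-0.49) or 2 (-0.56), and without replicate 1 of both groups (-0.34).

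Collagen VII forms the anchoring fibrils, and loss of its gene causes blistering of the skin. Col7a1 (ENSMUSG00000025650, chromosome 9, 108953586 to 108984875, plus strand) had 280, 362 and 278 CPM in caNrf2 libraries, against 175, 189 and 194 CPM in ctrl libraries. All caNrf2 libraries lay above all ctrl libraries, with replicate 2 of caNrf2 the highest. The fold change was 1.65 (log2 0.72, SE 0.12, edgeR adjusted p = 0.00292), and the call held in all 16 alternatives at 0.58 to 0.78. Keratinocytes also make collagen VII, and their marker genes summed to 212 to 338 CPM in caNrf2 and 145 to 244 CPM in ctrl libraries. Of 8 such markers tested, 1 was called higher, Krt14 (121 ± 20.8 CPM in caNrf2 and 72.5 ± 18.7 CPM in ctrl, n = 3 each, edgeR adjusted p = 0.0223). Its call was lost without caNrf2 replicate 2 (log2 fold change 0.59) or 3 (0.74) or ctrl replicate 2 (0.59) or 3 (0.67). Krt5, the most abundant of these markers, had 135 ± 36 CPM in caNrf2 and 86.4 ± 24.5 CPM in ctrl libraries (adjusted p = 0.0791) and was called higher without replicate 1 of caNrf2 (0.84), of ctrl (0.89) or of both groups (1.09). The number of keratinocyte markers called higher was 6 when replicate 1 of each group was left out, 3 without caNrf2 replicate 1 or with no filter, and 2 without ctrl replicate 1 or with DESeq2. Their part in the Col7a1 result was not tested.

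**Figure D2:**
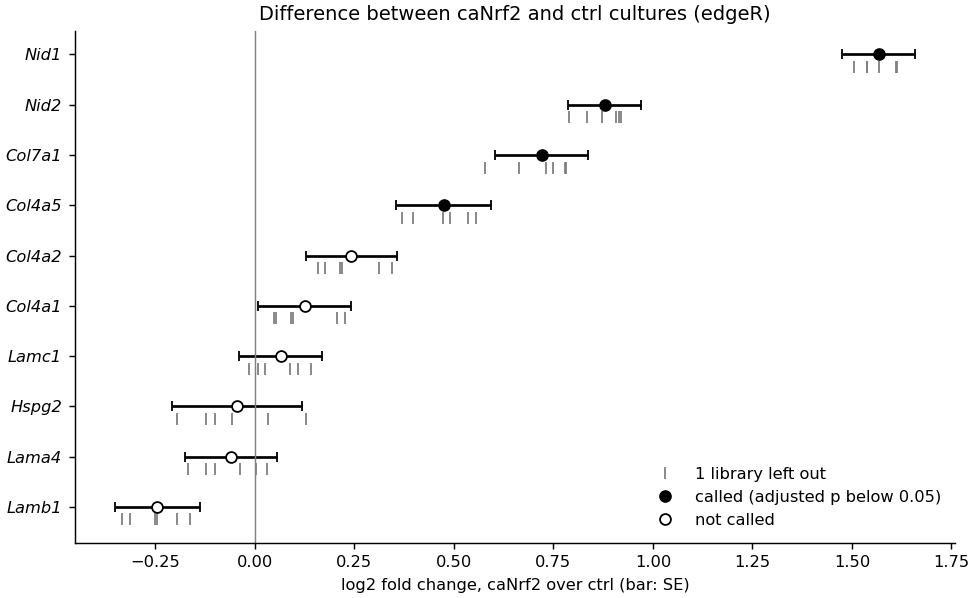
log2 fold change of caNrf2 over ctrl (x axis) for the 10 genes (y axis), with bars of 1 SE; filled points were called and open points were not, and grey ticks are the 6 values with 1 library left out. Nid1, Nid2, Col7a1 and Col4a5 lie at 1.57, 0.88, 0.72 and 0.48, and Lamb1 is the lowest at -0.25.

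Proportions of partner chains inside each library do not depend on scaling between libraries, so 8 pairs fixed by name were compared as ratios of summed TPM. The two-sided exact permutation test over 3 against 3 libraries cannot go below p = 0.1, so no pair could pass the threshold. The groups did not overlap in 5 of the 8 pairs, and the share for gene pairs in general was not computed. Nid1/Nid2, Nid1/Lamc1 and Col7a1/Col1a1 hold genes that were called themselves, so these ratios are not separate from those calls. The ratio of Nid1 to Nid2 was 9.51, 11.2 and 8.68 in caNrf2 libraries, against 6.17, 6.47 and 5.53 in ctrl libraries (exact permutation p = 0.1, adjusted over the pairs 0.16). Nid1 thus stood higher relative to its paralog in every caNrf2 library. The ratio of Nid1 to Lamc1, its laminin partner, was 4.95, 4.9 and 4.22 in caNrf2 libraries, against 1.8, 1.71 and 1.45 in ctrl libraries. That of Lamb1 to Lamc1 was 1.02, 0.91 and 0.927 in caNrf2 libraries, against 1.22, 1.15 and 1.19 in ctrl libraries, so that the β1 chain was lower relative to γ1 in each caNrf2 library even though Lamb1 itself was not called. 

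The ratio of Col4a1 to Col4a2 was the tightest within groups, at 1.26, 1.29 and 1.29 in caNrf2 libraries, against 1.34, 1.38 and 1.38 in ctrl libraries. The difference was small, a mean log2 ratio of -0.10 with a pooled SD of 0.02 (exact permutation p = 0.1). The ratio of Col7a1 to Col1a1, the main collagen I gene of the dermis, averaged 0.0206 ± 0.00487 in caNrf2 and 0.0082 ± 0.00105 in ctrl libraries (n = 3 each), also without overlap. Both sides of that ratio moved, as Col1a1 was called lower. The groups overlapped for Lama4 to Lamc1 (0.736 ± 0.0801 in caNrf2 and 0.756 ± 0.0415 in ctrl), Hspg2 to Lamc1 (1.69 ± 0.151 and 1.68 ± 0.161 in the same order) and Col4a5 to Col4a1 (0.345 ± 0.0193 and 0.274 ± 0.0549). In caNrf2 replicate 1, short transcripts of Hspg2 (820 bases, 901 expected counts) and Lama4 (511 bases, 132) raise summed TPM beyond their share of reads. This limits the TPM levels and ratios of both genes in that library. Short transcripts of Col7a1 did the same in every library (245 bases, 6.18 to 34.6 expected counts, and 695 bases, 19.5 to 75.8). A Lamc1 transcript of 762 bases took 30.5 to 171 expected counts. One of Col4a2 with 921 bases took 157 in ctrl replicate 1 and 0 elsewhere. The ratios that hold Col7a1, Lamc1 or Col4a2 share this limit. Over 8 alternatives the mean log2 difference of Hspg2 to Lamc1 ran from -0.13 to 0.08.

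**Figure D3:**
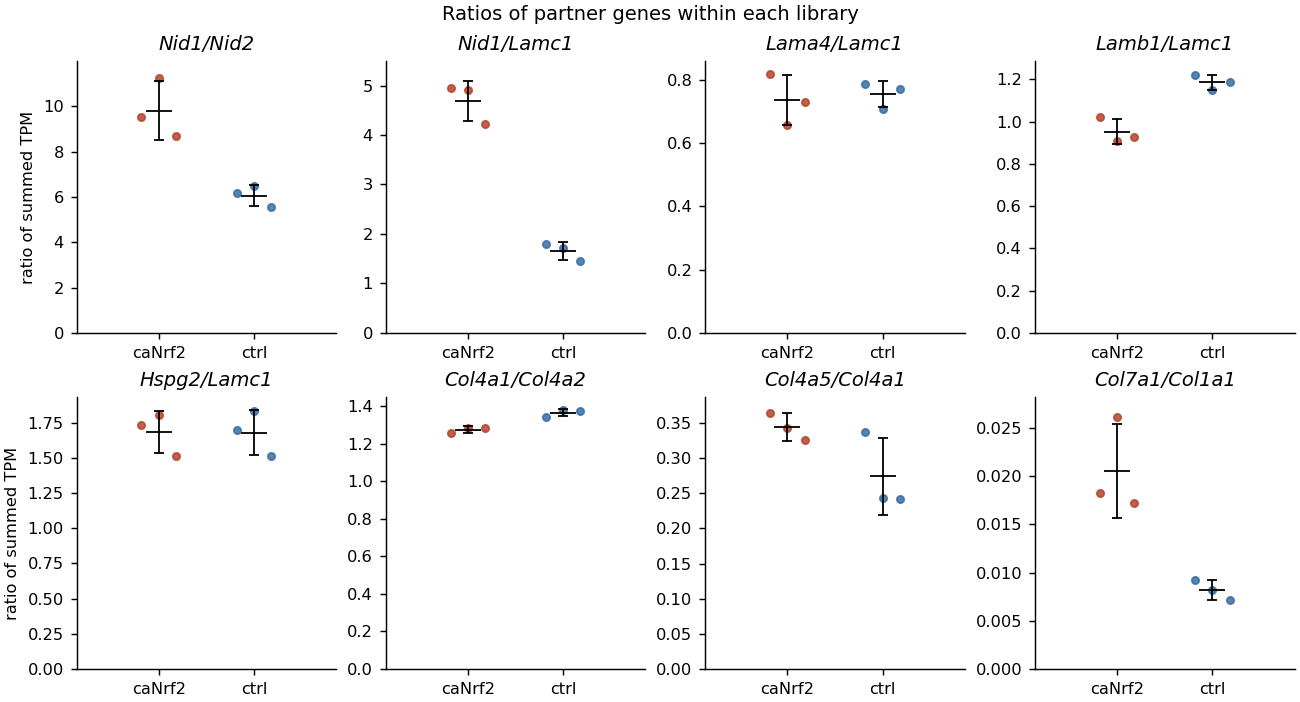
Ratio of summed TPM of partner genes (y axes from 0) in each caNrf2 and ctrl library, 1 panel a pair; points are libraries, bars are the mean and SD of 3. The groups do not overlap for Nid1/Nid2, Nid1/Lamc1, Lamb1/Lamc1, Col4a1/Col4a2 and Col7a1/Col1a1.

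The deposited tables divide the reads of each gene among Ensembl transcripts. Nid1 and Nid2 have a single transcript each in these tables. One coding transcript held nearly all reads of Lama4, Lamc1, Col4a1, Col4a2 and Col7a1, with the lowest share, 96.46%, for Col7a1 in caNrf2 replicate 1. Lamb1 was divided between ENSMUST00000002979, with 93.8% to 97.9% of its reads, and the coding transcript ENSMUST00000169088, which starts further upstream. The share of ENSMUST00000169088 was 2.56%, 2.1% and 2% in caNrf2 libraries, against 4.04%, 4.23% and 3.88% in ctrl libraries, without overlap. Transcript usage of Lamb1 was not called (edgeR diffSpliceDGE adjusted p = 0.683, limma on the shares 0.454), and had an adjusted p of 0.0408 with diffSpliceDGE on the posterior mean counts. That last value is not relied on, because diffSpliceDGE called too many unchanged genes in a trial on made counts with known answers.

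Perlecan reads were divided between ENSMUST00000030547 and ENSMUST00000171332, coding transcripts of nearly equal length. The second held 40.6%, 47.0% and 47.4% in caNrf2 libraries, against 46.8%, 44.6% and 49.6% in ctrl libraries. A short transcript at the 3′ end of Hspg2, ENSMUST00000155648, took 901 expected counts (1.76%) in caNrf2 replicate 1 and at most 91.2 (0.0957%) in the other 5 libraries. The same library had the highest share of a short retained-intron transcript at the 3′ end of Lama4, ENSMUST00000163036 (1.13%, and at most 0.204% elsewhere). It was also the library with the lowest Hspg2 level of all. Col4a5 was divided between ENSMUST00000112931 and ENSMUST00000112930, and ENSMUST00000112930 held 32.9%, 32.8% and 31.5% in caNrf2 libraries, against 32.4%, 36.0% and 24.4% in ctrl libraries. Transcript usage was called for 0 of the 7 genes with more than 1 transcript kept, by edgeR diffSpliceDGE or by limma on the shares (0.801% and 0.0876% of 7992 genes), and at an unadjusted p under 0.05 diffSpliceDGE had Lamb1 and Hspg2 and limma had Lamb1.

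**Figure D4:**
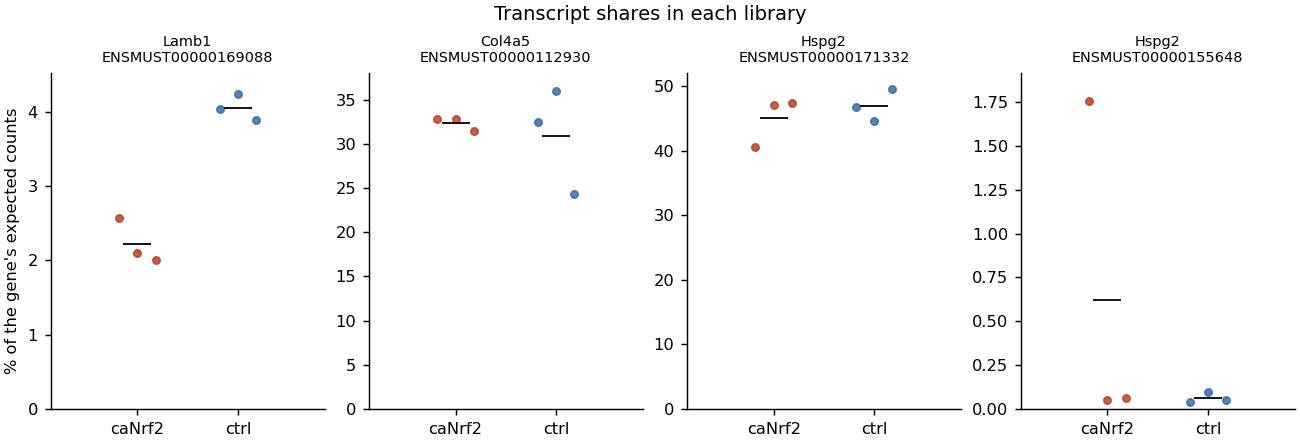
Share of a gene's expected counts (percent, y axes from 0) assigned to 4 named transcripts of Lamb1, Col4a5 and Hspg2 in each caNrf2 and ctrl library; points are libraries and lines are means. The Lamb1 transcript does not overlap between groups, and the short Hspg2 transcript stands at 1.76% in 1 caNrf2 library only.

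The genes whose log2 CPM followed that of Nid1 most closely over the 6 libraries were Tnfrsf21, a death receptor gene, Synpo2, an actin-binding protein gene, and Stk10, a kinase gene. Their likeness, Pearson's r, was 0.9998, 0.9996 and 0.9994. The libraries fall into 2 separate groups, so r mainly reflects the gap between the groups, and 1632 genes reached an r of 0.9 with Nid1. The genes were chosen for this likeness and it is given with no test.

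Other genes of basement membranes, in 7 lists fixed by name, moved in both directions. Of 84 tested, 24 were called higher and 16 lower, 40 in all, where the fit called 21.5% of all genes tested. The lists were chosen with earlier results of these data known, which can raise these counts, so they are a description only. Among the 8 other laminin chain genes 5 were higher and 1 lower, with a median log2 fold change of 0.83. Lamc3, the γ3 chain, rose most, to 38.7 ± 12.1 CPM in caNrf2, against 3.66 ± 0.368 CPM in ctrl libraries (log2 3.4, SE 0.22, edgeR adjusted p = 1.37e-05). Lamb2, the β2 chain and the most abundant of these, reached 458 ± 17.5 CPM in caNrf2, against 307 ± 29.4 CPM in ctrl libraries (adjusted p = 0.00308). Lama5 and Lamb3, named after their values were seen, were also higher, at 1.86- and 2.12-fold. Lamb3 encodes a chain of the laminin of keratinocytes, whose markers are given with Col7a1. Lama1, the α1 chain of embryonic basement membranes, was lower (3.3 ± 1.42 CPM in caNrf2 and 9.75 ± 5.12 CPM in ctrl, adjusted p = 0.0268). It lost its call without caNrf2 replicate 1 (log2 fold change -1.42) or 2 (-1.36) or ctrl replicate 2 (-1.60) or 3 (-1.10).

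Among 5 tested collagens of basement membrane zones, Col15a1 and Col4a6 were lower and Col17a1 was higher. Col15a1, a collagen of the outer face of these sheets, had 26.3 ± 5.66 CPM in caNrf2 and 63.4 ± 21.6 CPM in ctrl libraries (n = 3 each, edgeR adjusted p = 0.00803). Col17a1, a hemidesmosome collagen of keratinocytes, had 46.5 ± 15.8 CPM in caNrf2 and 26.8 ± 6.18 CPM in ctrl libraries. Its adjusted p was 0.0499, and the call was lost in 11 of 16 alternatives, including those without caNrf2 replicate 2 (log2 fold change 0.53) or 3 (0.77) or ctrl replicate 2 (0.69) or 3 (0.71). Col18a1 was the most abundant and was not called (155 ± 7.66 CPM in caNrf2 and 144 ± 28.3 CPM in ctrl).

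The 16 other linker proteins were divided, 5 higher and 5 lower, with a median of -0.13. The higher count was 3 without caNrf2 replicate 2 or 3 or ctrl replicate 1, and the lower count 3 without caNrf2 replicate 1 or 2 or ctrl replicate 3. Tinagl1, a laminin-binding matricellular protein gene, rose 3.11-fold and Npnt, an integrin ligand of basement membranes, 2.29-fold (edgeR adjusted p = 0.000182 and 0.000446). Smoc2, a calcium-binding basement membrane protein gene, fell to 0.446-fold and Frem1, of the Fraser complex that joins epidermis and dermis, to 0.458-fold (adjusted p = 0.000509 and 0.00189). Ntn4, a laminin-binding netrin gene named after its value was seen, was at 29.1 ± 2.61 CPM in caNrf2 and 5.88 ± 3.32 CPM in ctrl libraries. Sparc, a collagen IV-binding protein gene and the most abundant of the list, had 3855 ± 121 CPM in caNrf2 and 4641 ± 478 CPM in ctrl libraries (adjusted p = 0.0807). It was called lower by DESeq2 (0.0301), with upper-quartile factors (0.0493) and without ctrl replicate 1 (log2 fold change -0.36).

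Of 11 receptors, 3 were called higher and 0 lower, where the fit called 12.5% of all genes tested higher and 9.03% lower. The lower count was 0 in all 16 alternatives, DESeq2 and limma-voom included, and at an unadjusted p under 0.05 in edgeR 2 were lower. The integrin genes Itga3 (15.5 ± 3.27 CPM in caNrf2 and 7.23 ± 1.26 CPM in ctrl) and Itga7 (13.1 ± 1.5 and 6.08 ± 1.09 CPM in the same order), which encode laminin-binding chains, were both higher (edgeR adjusted p = 0.00265 and 0.00129). The third was Itgb4, the hemidesmosome integrin gene, named after its value was seen (1.99-fold). Itgb1 encodes the β chain common to the Itga3 and Itga7 products. It was the most abundant by CPM, with 1359 ± 20.5 CPM in caNrf2 and 1191 ± 45.3 CPM in ctrl libraries (edgeR adjusted p = 0.12). Its groups did not overlap. 

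Of 14 genes for collagen folding, export and cross-linking, 1 was higher and 3 lower (1 lower without ctrl replicate 2), with a median of -0.12. Of all genes tested, the fit called 12.5% higher and 9.03% lower. Plod3, a lysyl hydroxylase and glycosyltransferase gene needed for collagen IV secretion, rose 1.32-fold (edgeR adjusted p = 0.0169), without a call when caNrf2 replicate 2 (log2 fold change 0.40) or ctrl replicate 3 (0.40) was left out. P4ha2, a prolyl hydroxylase gene (0.747-fold, adjusted p = 0.0067), and Plod2, another lysyl hydroxylase gene (0.722-fold, 0.0166), fell, and Plod2 lost its call without ctrl replicate 2 (-0.41) or replicate 1 of both groups (-0.37). The collagen chaperone gene Serpinh1, the most abundant, had 2370 ± 117 CPM in caNrf2 and 2655 ± 225 CPM in ctrl libraries (adjusted p = 0.246). Of 14 enzymes of heparan sulfate chains, which perlecan carries, 1 was higher and 2 lower, near the 21.5% of all genes tested that the fit called. Sulf1, a gene for a sulfatase that removes sulfate groups from these chains, reached 113 ± 11.7 CPM in caNrf2, against 48.1 ± 9.81 CPM in ctrl libraries (adjusted p = 0.000509). Ext1, a polymerase gene of the chains, and Sulf2 fell to 0.757- and 0.764-fold (adjusted p = 0.015 and 0.0346). Sulf2 lost its call without caNrf2 replicate 1 (-0.42), 2 (-0.33) or 3 (-0.43), ctrl replicate 1 (-0.40) or 3 (-0.30), or replicate 1 of both groups (-0.42).

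Of 16 proteases and inhibitors that act on basement membranes 8 were higher and 3 lower, with a median of 0.59. The cathepsin gene Ctsb (930 ± 24.0 CPM in caNrf2 and 487 ± 63.1 CPM in ctrl, edgeR adjusted p = 0.000437), and the inhibitor gene Timp1 (216 ± 7.77 and 117 ± 17.5 CPM, 0.000689) were higher. The inhibitor gene Timp3 (274 ± 28.4 CPM in caNrf2 and 593 ± 84.4 CPM in ctrl, 0.000377) and Adamts1, a protease gene whose product cleaves nidogens (705 ± 38.2 and 1083 ± 50.6 CPM, 0.0012), were lower. Ctss, the leukocyte cathepsin gene, named after its value was seen, was 5.21-fold higher. Markers of leukocytes were higher in the same cultures, 8 of 9, with summed levels of 133 to 156 CPM in caNrf2 and 20.8 to 56.9 CPM in ctrl libraries. Without caNrf2 replicate 2 it was 5 of the markers. Their part in the protease counts was not tested.

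**Figure D5:**
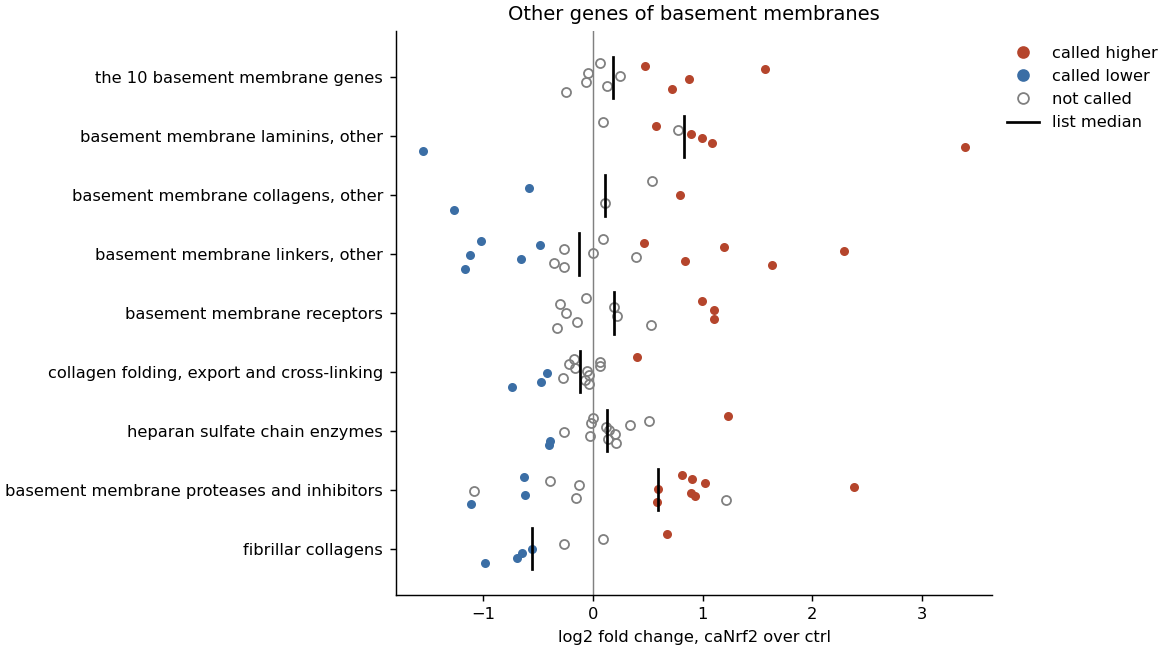
log2 fold change of caNrf2 over ctrl (x axis) for the 10 genes and for 8 gene lists (y axis); red and blue points were called higher and lower, open points were not called, and black lines are list medians. The other laminins have a median of 0.83 and the fibrillar collagens one of -0.56.

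Fibrillar collagens form the interstitial matrix of the dermis. Of 7 tested, 4 were lower and 1 higher, with a median of -0.56. Col1a2 averaged 8355 ± 836 CPM in caNrf2 and 13544 ± 2607 CPM in ctrl libraries (n = 3 each, edgeR adjusted p = 0.00993), and Col5a1 1998 ± 90.0 and 3124 ± 360 CPM in the same order (0.00277). Col1a1, the most abundant, averaged 11967 ± 762 CPM in caNrf2 and 17603 ± 3234 CPM in ctrl libraries (0.0192). It lost its call without caNrf2 replicate 1 (log2 fold change -0.56), 2 (-0.52) or 3 (-0.61) or ctrl replicate 2 (-0.52) or 3 (-0.44). Col5a3 was the higher one (104 ± 6.14 CPM in caNrf2 and 65 ± 21 CPM in ctrl, adjusted p = 0.04999), and it lost its call without caNrf2 replicate 1 (0.70), 2 (0.69) or 3 (0.61) or ctrl replicate 2 (0.75). It was also lost with DESeq2 size factors (adjusted p = 0.0515), upper-quartile factors (0.0531) or a stricter filter on low counts (0.0509).

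Other cells of the skin that make basement membranes were read from their markers. Endothelial markers summed to 18.3 to 19.3 CPM in caNrf2 and 13.2 to 17.1 CPM in ctrl libraries, and of 9 tested 1 was called, Cdh5 (4.48 ± 0.616 CPM in caNrf2 and 2.16 ± 0.682 CPM in ctrl, edgeR adjusted p = 0.0136), not without caNrf2 replicate 2 (log2 fold change 0.93). Egfl7, the most abundant of these, had 4.45 ± 0.718 CPM in caNrf2 and 3.6 ± 0.861 CPM in ctrl libraries. Pericyte markers summed to 588 to 720 CPM in caNrf2 and 800.0 to 890.0 CPM in ctrl libraries, with 2 of 7 lower, among them Abcc9 (1.33 ± 0.133 and 3.12 ± 0.307 CPM, adjusted p = 0.00185). Their most abundant gene, Pdgfrb, which fibroblasts also express, was the other (adjusted p = 0.0202), and lost its call without caNrf2 replicate 2 (-0.45) or ctrl replicate 2 (-0.44) or 3 (-0.39). Skeletal muscle markers summed to 118 to 154 CPM in caNrf2 and 79.3 to 87.5 CPM in ctrl libraries, with 5 of 7 higher, among them Acta1, the most abundant, and Mylpf (adjusted p = 0.000689 and 0.000674). Schwann cell and melanocyte markers summed to 22.1 to 27 CPM in caNrf2 and 16.3 to 19.8 CPM in ctrl libraries, with 2 of 7 higher, among them S100b. The count was 1 without caNrf2 replicate 2 or 3 or ctrl replicate 1 or 2, and 0 when replicate 1 of each group was left out. S100b was not called when replicate 1 of each group was left out (log2 fold change 1.47). Among leukocyte markers Lyz2 was the most abundant (97.6 ± 9.82 CPM in caNrf2 and 26.5 ± 14 CPM in ctrl) and Ptprc had the smallest adjusted p (0.00077). No listed marker was at 0 in all libraries. The part of these cells in the nidogen and collagen results was not tested.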

How the data were processed

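Each library has a table of Ensembl transcripts (GRCm38), made with CASAVA 1.8 and RSEM 1.2.21 per the submitters' processing notes. No source names the aligner, the annotation release or the strand setting. The authors deposited, per the file headers, expected counts per transcript (maximum likelihood and posterior mean) and TPM. For each gene the maximum likelihood values of its transcripts were added and rounded. Genes were kept with filterByExpr (minimum count 10, minimum total 15), scaled by TMM and tested with edgeR 4.0.16 (R 4.3.3), quasi-likelihood F test, two-sided, threshold 0.05, Benjamini-Hochberg over all genes. SEs come from the F statistic. Deposited TPM summed per gene served for levels between genes and for ratios. Most genes named outside the members follow a rule: 2 called genes of smallest adjusted p in each direction and the most abundant gene of each list by mean CPM, for marker lists 1 of each, and the 3 genes most like Nid1. Exceptions are Nfe2l2 (the label check), the fibroblast markers, which are all named, and Rtraf, Lama5, Lamb3, Ntn4, Itgb4 and Ctss, chosen after their values were seen. The members and lists were chosen with earlier results of these data known. Symbols named 42462 of 43629 gene IDs. The replicates are separate samples by their titles. Transcript usage was tested with diffSpliceDGE and, added after seeing the data, with limma 3.58.1 on log2 odds of shares (prior 0.5 reads). Alternatives included DESeq2 1.42.0. Library precision follows from 23367 or more expected counts for Nid1 and 3397 or more for Nid2, the lowest member. Some genes that the rule or the lists hold are not reported here.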

Additional observations from a re-analysis of the deposited data

How the results depend on the processing

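Of 160 values of the 10 genes under 16 alternatives each, 156 kept their side of the threshold and 4, all of Col4a5 with 1 library left out, lost the call; no sign turned for a called gene. The number called higher was 3 or 4 with each library left out, 4 in every other alternative, and the number called lower was 0 throughout. Genes called lower over the whole table ranged from 823 (without ctrl replicate 3) to 1143 with 1 library left out. Transcript usage had 1 member, Lamb1, past the threshold on posterior mean counts and 0 in the other alternatives; that value is from diffSpliceDGE, which is not relied on. Whether equal replicate numbers pair the samples is not settled. Deviations from group means correlated at 0.214, 0.209 and 0.095 for equal numbers, the third under the threshold of 0.1. For unequal numbers the correlations lay between -0.242 and 0.112. The main fit took the samples as unpaired. With the replicate block 4 members were called higher, 0 lower and 0 in transcript usage. Of the 8 ratios, 6 went one way in every pair of equal replicate number. That is a looser measure than the lack of overlap between groups, which held for 5. Among other named genes Col4a6 (log2 fold change -0.59, adjusted p = 0.0809) and Col17a1 (0.77, 0.105) lost their edgeR call with the block. Proteases and inhibitors called lower were 5 with the block or with no filter, and 3 as reported. Of 848 values of other named genes, 783 were unchanged, 58 lost and 7 gained a call. Leaving out replicate 1 of both groups was chosen after seeing the data, as was limma on shares. The number of libraries limits the ratios, whose exact test cannot go below 0.1.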
